A study of Mus musculus with 63 samples.

Results

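The 10 genes described here encode the metallothioneins Mt1, Mt2 and Mt3 and enzymes and a transporter of antioxidant defence, namely Hmox1, Nqo1, Gclc, Gclm, Slc7a11, Gpx4 and Txnrd1. They were chosen by name for their function, and the Ensembl identifiers of all 10 were found among the 56980 genes of each count table. Bulk RNA-seq had been run on 4 populations of cells sorted by flow cytometry from mouse cortex 5 weeks after a burn or a sham injury, and the comparison of burn with sham asked what remained changed at that time. All mice were female C57BL/6J, 12 weeks old when housed before surgery, given adeno-associated virus in the primary motor cortex of each hemisphere (eGFP driven by CaMKII, mRuby2 driven by mDlx) and the analgesics paracetamol and buprenorphine. Some burn-injured mice needed buprenorphine again after surgery. The burn was a full-thickness burn over 7 to 8% of the body surface on the shaved right flank, and sham mice were shaved and not burned. CaMKII positive cells (eGFP only, 4 burn and 6 sham mice) and CaMKII-mDlx double-positive cells (9 burn and 7 sham) came from motor cortex, and cells labelled by antibody for ACSA2 (9 burn and 8 sham) or CD11b (8 burn and 7 sham) came from cortex caudal to it. Each mouse gave at most 1 library to a population. Of the 63 libraries deposited, 58 from 17 mice were used: the 4 libraries of mouse 3 and the double-positive library of mouse 8 were left out. Region and sorting label cannot be told apart between the virus-labelled and the antibody-labelled populations.

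On GRCm38, Mt1 (ENSMUSG00000031765) at chr8:94179082-94180327, Mt2 (ENSMUSG00000031762) at chr8:94172664-94173568, Mt3 (ENSMUSG00000031760) at chr8:94152607-94154146, Hmox1 (ENSMUSG00000005413) at chr8:75093621-75100589, Nqo1 (ENSMUSG00000003849) at chr8:107388225-107403206, Gclc (ENSMUSG00000032350) at chr9:77754535-77794485, Gclm (ENSMUSG00000028124) at chr3:122245557-122270732, Slc7a11 (ENSMUSG00000027737) at chr3:49892526-50443614, Gpx4 (ENSMUSG00000075706) at chr10:80047166-80056439 and Txnrd1 (ENSMUSG00000020250) at chr10:82833951-82897712 are the positions of the genes in the annotation used here.

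Metallothioneins are small cysteine-rich proteins that bind zinc and copper and can scavenge oxidants. Mt1 and Mt2 are induced by metals through the transcription factor MTF1, which binds metal response elements, and by glucocorticoids through the glucocorticoid receptor, while Mt3 is the form typical of brain. Many genes of glutathione synthesis, quinone reduction, thioredoxin recycling and haem breakdown are targets of the transcription factor NRF2 (gene Nfe2l2), which KEAP1 holds back until oxidants or electrophiles modify it. In the brain, astrocytes are known for high metallothionein levels and for supplying glutathione precursors to neurons.

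The promoters of the metallothionein genes are shown because Mt1 and Mt2 moved together between libraries (below) and lie next to each other on chromosome 8, with Mt3 beside them. The sequences are those of RefSeq on GRCm38.p6, from 250 bases before to 50 bases after the start of transcription, all on the plus strand, at chr8:94178839-94179138 for Mt1, chr8:94172368-94172667 for Mt2 and chr8:94152357-94152656 for Mt3. Capitals mark matches to the core of the metal response element (TGCACNC or TGCGCNC, on either strand).
Mt1: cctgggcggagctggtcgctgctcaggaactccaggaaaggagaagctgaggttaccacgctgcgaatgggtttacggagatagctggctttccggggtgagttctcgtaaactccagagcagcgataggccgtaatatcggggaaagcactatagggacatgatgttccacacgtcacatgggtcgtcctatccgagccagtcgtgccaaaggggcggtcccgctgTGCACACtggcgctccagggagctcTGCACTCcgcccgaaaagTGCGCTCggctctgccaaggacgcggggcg
Mt2: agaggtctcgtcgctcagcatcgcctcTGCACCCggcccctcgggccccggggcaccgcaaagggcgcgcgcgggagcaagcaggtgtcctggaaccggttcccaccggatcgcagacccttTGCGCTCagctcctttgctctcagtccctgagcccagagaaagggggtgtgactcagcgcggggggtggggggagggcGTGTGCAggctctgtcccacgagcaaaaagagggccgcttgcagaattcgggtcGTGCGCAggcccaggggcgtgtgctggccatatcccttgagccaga
Mt3: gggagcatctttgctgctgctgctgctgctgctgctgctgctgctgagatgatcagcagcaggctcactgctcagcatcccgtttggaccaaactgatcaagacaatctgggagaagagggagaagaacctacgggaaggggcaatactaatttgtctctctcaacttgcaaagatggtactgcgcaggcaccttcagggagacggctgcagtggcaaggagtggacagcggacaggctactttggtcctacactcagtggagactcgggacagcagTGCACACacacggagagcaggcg
These windows held 4 matches in Mt2, 3 in Mt1 and 1 in Mt3. The windows follow the RefSeq starts: that of Mt2 ends at 94172667, while Mt2 starts at 94172664 in the annotation used here. The Mt2 window thus lies almost wholly before that start. Gclm, the modifier subunit of glutamate cysteine ligase, also held 3. The other members with a promoter in the table (Slc7a11, Nqo1, Gpx4 and Txnrd1) held 0, and 8 of the 10 members had a promoter there. Of all 32851 mouse promoters in that table, 25.7% held at least 1 match and 1.97% held at least 3. The core of the antioxidant response element through which NRF2 acts (TGACNNNGC, either strand) was found once in each of the windows of Mt2 and Gclm and in 1 of the 3 Txnrd1 promoters, against 12.4% of all promoters with at least 1. A match is a string of letters and was not tested as a binding site.

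Total counts ran from 13346143 to 134703744 over the 58 libraries (median 24339895), so that the limit set by a count of 0 (3 counts, counting error only) lay between 0.0223 and 0.225 CPM (counts scaled by the total of the library). Against the cell types named in the labels, the 8 astrocyte markers summed to a median of 37810 CPM in ACSA2-positive libraries and the 8 microglia markers to 26510 CPM in CD11b-positive libraries. The virus-labelled populations did not match their labels as excitatory and inhibitory neurons: CaMKII positive libraries held 19370 CPM of astrocyte markers (12330 to 23070), 4018 CPM of endothelial markers and 128 CPM of excitatory neuron markers, and double-positive libraries held 20730 CPM of microglia markers (17260 to 32300), 900.1 CPM of astrocyte markers and 1.91 CPM of inhibitory neuron markers. All 9 inhibitory markers averaged under 1 CPM in the double-positive libraries. These populations are therefore called by their sorting labels here. In bulk libraries fewer cells of a type and less RNA per cell cannot be told apart.

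The 3 metallothionein transcripts were highest in ACSA2-positive libraries, intermediate in CaMKII positive libraries and low in the other 2 populations. Mt1 ran from 346 to 913 CPM in ACSA2-positive libraries (median 567, n = 17), from 186.5 to 436.8 CPM in CaMKII positive (median 291, n = 10), from 17.0 to 41.6 CPM in double-positive (median 32.0, n = 16) and from 13.2 to 44.1 CPM in CD11b-positive libraries (median 27.5, n = 15). Mt2 ran from 107 to 330 CPM, 52.2 to 172 CPM, 1.20 to 8.09 CPM and 0.266 to 3.45 CPM in the same order. Mt3 ran from 310 to 677 CPM, 179 to 348 CPM, 4.26 to 12.3 CPM and 0.0536 to 3.93 CPM. For each of the 3 genes the lowest ACSA2-positive library was above the highest double-positive and CD11b-positive libraries, and ACSA2-positive and CaMKII positive libraries overlapped. All 10 genes and all 58 libraries are shown in the plot of levels by library.

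**Figure D1:**
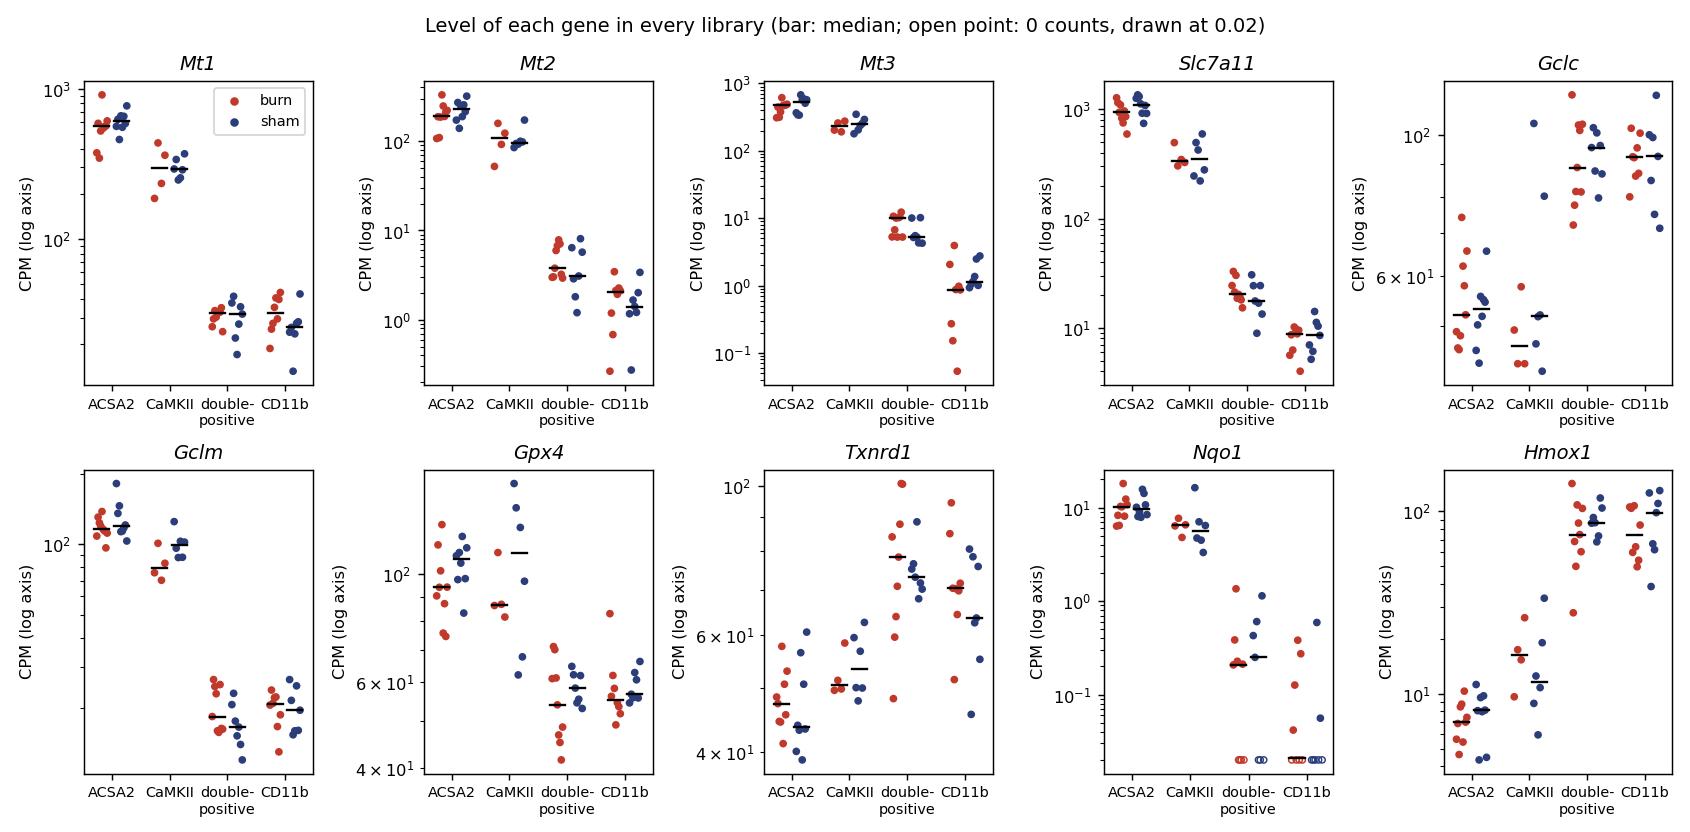
CPM of each of the 10 genes (log axis) in every library of the 4 populations, burn in red and sham in blue, with a bar at the median of each group; open points are libraries with 0 counts, drawn at 0.02. Mt1, Mt2, Mt3, Slc7a11, Gclm and Nqo1 are higher in ACSA2-positive and CaMKII positive libraries than in the others, Hmox1 is lower, and burn and sham points overlap in every panel.

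In the fit across all genes, ACSA2-positive against CD11b-positive libraries called 7 of the 10 members (a p-value adjusted over all genes, p.adj, no greater than 0.05 together with a log2FC of 1 or more in size), 6 higher and 1 lower, where 53.8% of all genes tested were called, so that the share of members alone says little. Mt3 differed most, with a mean of 467 ± 113 CPM (SD, n = 17) against 1.33 ± 1.06 CPM (SD, n = 15) and a log2FC of 8.56 (SE 0.31, p.adj = 3.76e-33), or 377-fold. Mt2 was 139.7-fold higher (log2FC 7.13, SE 0.27, p.adj = 1.13e-31) and Mt1 20.65-fold higher (log2FC 4.37, SE 0.16, p.adj = 6.81e-33). The median log2FC of all genes in this contrast was 0.24.

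CaMKII positive libraries called 4 of the 10 members against ACSA2-positive libraries, all lower, where 18.4% of all genes were called. Mt1 was lower by a log2FC of -1.14 (SE 0.16, p.adj = 3.21e-08), Mt2 by -1.25 (SE 0.24, p.adj = 2.33e-05) and Mt3 by -1.17 (SE 0.25, p.adj = 0.000135). Slc7a11, the fourth, was lower by -1.56 (SE 0.18, p.adj = 1.14e-10). The mean levels of the metallothioneins in CaMKII positive libraries were 51.6% (Mt1), 50.4% (Mt2) and 52.3% (Mt3) of those in ACSA2-positive libraries, and the 8 astrocyte markers lay between 41.7 and 56.1% (median 47.95%). The part of astrocyte RNA in these levels was not tested. Scaling to library size alone moved the median of all genes in this contrast from -0.03 to 0.15 and the log2FC of Mt1 and Mt3 to -0.95 and -0.98, just short of the fold limit, with p.adj = 1.10e-07 and 0.000857.

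Against CD11b-positive libraries, CaMKII positive libraries called 7 members (45.5% of all genes) and, against double-positive libraries, 7 members as well (45.2% of all genes). Double-positive against ACSA2-positive libraries also called 7 members, with 52.5% of all genes called. In each of these 3 contrasts the 7 were Mt1, Mt2, Mt3, Slc7a11, Gclm, Nqo1 and Hmox1, and Hmox1 was the exception in direction. For Mt1 the log2FC was 3.22 (SE 0.16) for CaMKII positive against CD11b-positive and 3.20 (SE 0.16) for CaMKII positive against double-positive libraries.

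Double-positive and CD11b-positive libraries were the pair most alike, and 3 members were called between them, all higher in double-positive libraries, where 7.98% of all genes were called. These were Mt3 (7.55 ± 2.83 CPM against 1.33 ± 1.06 CPM, log2FC 2.57, SE 0.25, p.adj = 7.23e-12), Mt2 (4.55 ± 2.23 against 1.68 ± 0.955 CPM, log2FC 1.51, SE 0.24, p.adj = 2.84e-06) and Slc7a11 (21.0 ± 6.497 against 8.33 ± 2.67 CPM, log2FC 1.29, SE 0.16, p.adj = 6.56e-09), given as mean ± SD over 16 and 15 libraries. Among the members, only Mt3 separated these populations without overlap: its lowest double-positive library held 4.26 CPM and its highest CD11b-positive library 3.93 CPM. The share of all genes without overlap was not counted. Mt1 gave a log2FC of 0.03 (SE 0.14, p.adj = 0.986), with means of 30.5 and 29.7 CPM. The summed astrocyte markers ran from 453 to 1340 CPM in double-positive and from 198 to 343 CPM in CD11b-positive libraries, and their part in the 3 differences was not tested. A block for the mouse kept these member calls while the genes called went from 2647 to 1529. With batch 3 alone, Slc7a11 fell short of the fold limit, at a log2FC of 0.91 (p.adj = 0.000356).

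Some reads of Mt2, Gpx4, Gclm and Slc7a11 could not be assigned without doubt. For Slc7a11 the share was small, with 1.47% of its 50-base windows found in other genes. The antisense gene Gm45774 covers 73.5% of the exon bases of Mt2 on the other strand, the libraries were stranded, and the strand setting of the counting is not given in the sources used here. Gm45774 itself held at most 61 counts in any library, and its mean was 0.344% of that of Mt2 in ACSA2-positive libraries and 1.35% in CD11b-positive libraries. The pseudogene Gpx4-ps2 shared 34.7% of the 50-base windows of Gpx4 and had a mean of between 11.6 and 13.5% of the Gpx4 level in all 4 populations. Gm6061, a pseudogene inside Gclm, shared 3.88% of the exon bases of Gclm and had means of 14.3 to 20.7 CPM in all 4 populations, or 88.4% of the Gclm level in CD11b-positive libraries.

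Of the genes of glutathione supply and use, Slc7a11 had the same order of medians as the metallothioneins. Slc7a11, the cystine and glutamate exchanger that brings in the precursor of glutathione, ran from 595 to 1360 CPM in ACSA2-positive libraries (median 967), from 221 to 596 CPM in CaMKII positive (median 337), from 8.90 to 32.8 CPM in double-positive (median 19.7) and from 3.99 to 14.1 CPM in CD11b-positive libraries (median 8.62). ACSA2-positive exceeded CD11b-positive libraries by a log2FC of 6.94 (SE 0.20, p.adj = 4.10e-38), and the overlap of ACSA2-positive and CaMKII positive libraries was limited to 595 to 596 CPM. Its mean in CaMKII positive libraries was 36.9% of the ACSA2-positive mean, under all 8 astrocyte markers.

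Glutamate cysteine ligase makes the first step of glutathione synthesis, and its subunits went opposite ways between glial sorts. The modifier subunit Gclm had a mean of 123 ± 19.6 CPM (SD, n = 17) in ACSA2-positive and 19.9 ± 3.86 CPM (SD, n = 15) in CD11b-positive libraries (log2FC 2.68, SE 0.10, p.adj = 1.25e-31), with no overlap. The catalytic subunit Gclc had 54.35 ± 8.45 CPM and 91.7 ± 11.5 CPM in the same libraries (log2FC -0.67, SE 0.09, p.adj = 7.48e-09), passing the p threshold and not the fold limit. ACSA2-positive and CD11b-positive ranges of Gclc met, at 43.7 to 74.2 and 71.3 to 115.5 CPM. Gclc in CaMKII positive libraries averaged 57.2 ± 19.9 CPM (SD, n = 10) and did not pass against ACSA2-positive libraries (log2FC -0.16, SE 0.11, p.adj = 0.266, opposite in sign to the means), a value that changed sign to 0.04 when scaled to library size alone.

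Gpx4, the glutathione peroxidase that reduces lipid hydroperoxides and restrains ferroptosis, had similar means in ACSA2-positive and CaMKII positive libraries, 99.8 ± 15.0 CPM and 101 ± 30.2 CPM (SD, n = 17 and n = 10). It was lower in double-positive and CD11b-positive libraries, at 56.8 ± 8.58 and 58.7 ± 8.09 CPM (SD, n = 16 and n = 15). ACSA2-positive against CD11b-positive libraries gave a log2FC of 0.84 (SE 0.09, p.adj = 9.14e-12), short of the fold limit. Double-positive and CD11b-positive libraries did not pass (log2FC -0.04, SE 0.09, p.adj = 0.887).

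Txnrd1, the cytosolic thioredoxin reductase that returns thioredoxin to its reduced form, varied least between populations. It had means of 47.6 ± 6.31 CPM in ACSA2-positive, 53.5 ± 5.19 in CaMKII positive, 76.1 ± 14.02 in double-positive and 69.2 ± 12.9 CPM in CD11b-positive libraries (SD). The order was ACSA2, CaMKII, CD11b and double-positive from low to high, by mean CPM, in which the first pair (CaMKII against ACSA2 log2FC -0.05, SE 0.10, p.adj = 0.761, opposite in sign to the means) and the last pair (double-positive against CD11b log2FC 0.15, SE 0.09, p.adj = 0.320) did not pass the test and the step between them did (CaMKII against CD11b log2FC -0.50, SE 0.10, p.adj = 3.00e-05).

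Nqo1, which reduces quinones by a transfer of electrons that avoids semiquinone radicals, was low in all populations. It ran from 6.34 to 18.1 CPM in ACSA2-positive and from 3.31 to 16.3 CPM in CaMKII positive libraries, which did not pass the test against each other (log2FC -0.91, SE 0.57, p.adj = 0.231). It was at 0 counts in 7 of 16 double-positive and 9 of 15 CD11b-positive libraries, and the highest values there were 1.35 and 0.590 CPM, from 43 and 13 counts. The fitted log2FC of 6.90 (SE 0.67, p.adj = 7.81e-14) for ACSA2-positive against CD11b-positive libraries rests on these few counts. Double-positive against CD11b-positive libraries gave 1.74 (SE 0.63, p.adj = 0.0642), and it was called when mouse 16, 21 or 23 was left out (p.adj = 0.00822, 0.0246 and 0.0498) and by DESeq2 (log2FC 1.66, p.adj = 0.0468).

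Hmox1, the inducible haem oxygenase that breaks haem down to biliverdin, iron and carbon monoxide, was lowest in ACSA2-positive libraries and higher in the double-positive and CD11b-positive libraries. It ran from 4.34 to 11.2 CPM in ACSA2-positive libraries (median 7.98), from 5.95 to 33.4 CPM in CaMKII positive (median 13.9), from 27.8 to 142 CPM in double-positive (median 86.3) and from 38.7 to 130 CPM in CD11b-positive libraries (median 84.2). The ACSA2-positive libraries all lay below the lowest double-positive and CD11b-positive libraries, and the log2FC against CD11b-positive libraries was -3.37 (SE 0.21, p.adj = 1.02e-21), a level 10.35-fold lower. Double-positive and CD11b-positive libraries did not pass (log2FC 0.04, SE 0.20, p.adj = 0.977). CaMKII positive exceeded ACSA2-positive libraries by a log2FC of 0.83 (SE 0.22, p.adj = 0.00254), under the fold limit, which it passed in batch 3 alone (1.07, p.adj = 0.000303). Summed microglia markers ran from 463 to 2252 CPM in CaMKII positive and from 44.1 to 162 CPM in ACSA2-positive libraries, and their part in this difference was not tested.

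Set against exon length, the metallothioneins led in ACSA2-positive libraries, with mean levels of 468 (Mt1), 438 (Mt3) and 360 (Mt2) CPM per kb. Slc7a11 followed at 72.7 CPM per kb and Gpx4 at 57.9, then Gclm at 19.5, Gclc at 14.4, Txnrd1 at 6.72, Nqo1 at 6.62 and Hmox1 at 4.31. In CD11b-positive libraries the order of these levels per kb began with Hmox1 (48.0), Gpx4 (34.0), Gclc (24.3) and Mt1 (23.8) and ended with Mt3 (1.25), Slc7a11 (0.598) and Nqo1 (0.0631). Lengths were the union of annotated exons, 1246 bases for Mt1, which includes retained introns, and 13922 for Slc7a11, so levels per kb depend on the annotation.

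**Figure D2:**
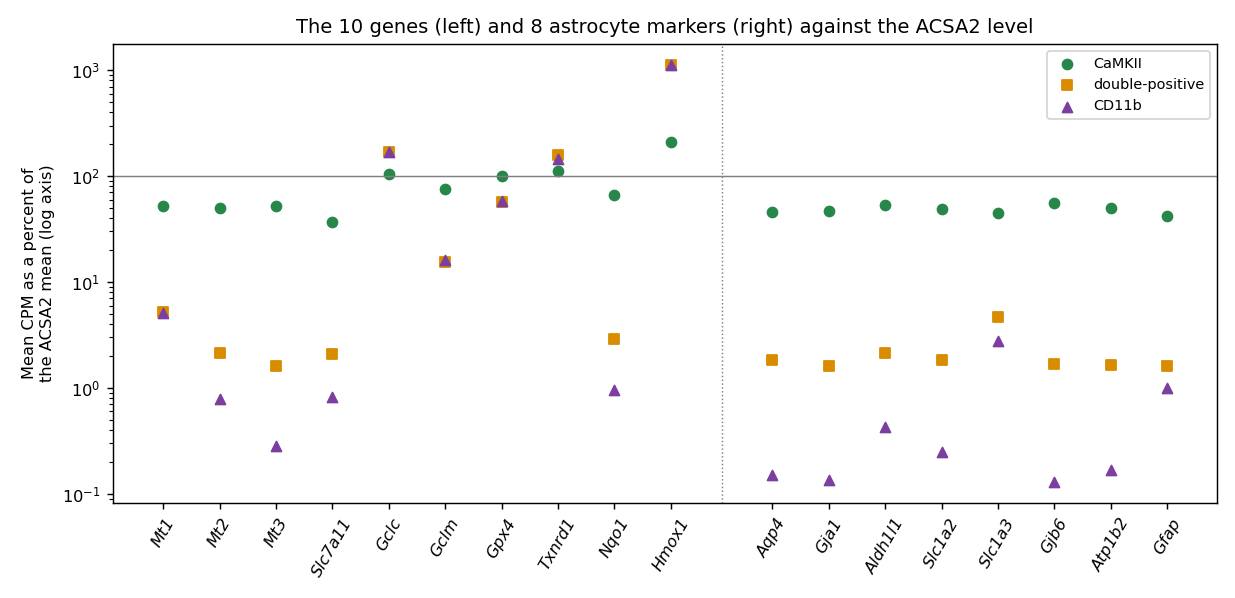
Mean CPM of each gene in CaMKII positive (circles), double-positive (squares) and CD11b-positive libraries (triangles) as a percent of its mean in ACSA2-positive libraries (log axis, line at 100), for the 10 genes on the left and 8 astrocyte markers on the right. Mt1, Mt2 and Mt3 in CaMKII positive libraries (50.4 to 52.3%) sit among the markers (41.7 to 56.1%), while Mt1 (5.22%) and Gclm (15.4%) in double-positive libraries sit above all 8 markers (1.61 to 4.67%).

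The plot of levels as a share of the ACSA2-positive mean sets the members beside the astrocyte markers. In double-positive libraries Mt3 (1.62%), Slc7a11 (2.07%), Mt2 (2.15%) and Nqo1 (2.92%) lay within the range of the markers, and Mt1 (5.22%), Gclm (15.4%), Gpx4 (56.9%), Txnrd1 (160%), Gclc (170%) and Hmox1 (1121%) lay above it. In CD11b-positive libraries Mt1 was at 5.08% and Mt3 at 0.284%, against 0.129 to 2.75% for the markers. Mt1 was thus the metallothionein with the largest share left in the populations rich in microglia markers.

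Of the 80 other antioxidant genes listed, 79 had enough counts, and 34 were called higher and 18 lower in ACSA2-positive than in CD11b-positive libraries (median log2FC 0.79, against 0.24 over all genes). Over all 33150 genes tested in this contrast 53.8% were called, 10633 higher and 7205 lower, and the counts of the lists below stand against that background. Mt4, a metallothionein of stratified epithelia, was the gene not tested and had 0 counts in all 58 libraries. Of the 8 metallothionein and zinc genes tested, 5 were higher and 0 lower, led by the transporters Slc30a10 (log2FC 8.94, SE 0.42) and Slc39a12 (5.20, SE 0.14). The CD11b-positive level of Slc30a10 was low, at 0.597 ± 0.813 CPM (SD), so its fold rests on few counts. Of 19 glutathione genes 9 were higher, led by Gpx7 (7.545, SE 0.59, against a CD11b-positive mean of 0.0447 CPM, within the range of the limits set by a count of 0) and the glutathione transferase Gstm1 (7.00, SE 0.18), and 4 lower, led by the peroxidase Gpx1 (-2.98, SE 0.15) and Ggt5 (-2.65, SE 0.18).

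Thioredoxin and peroxiredoxin genes gave 8 higher and 2 lower of 15, with the peroxiredoxin Prdx6 (log2FC 5.77, SE 0.11) and the sestrin Sesn3 (4.34, SE 0.11) at the top and the thioredoxin inhibitor Txnip (-4.185, SE 0.17) and mitochondrial Txnrd2 (-1.07, SE 0.13) lowest. All 4 superoxide dismutase and catalase genes were higher in ACSA2-positive libraries, led by secreted Sod3 (7.66, SE 0.45) and mitochondrial Sod2 (1.35, SE 0.07). Among 6 genes that supply NADPH, the reducing cofactor of these enzymes, 3 were higher, led by Me1 (8.22, SE 0.34) and Idh1 (1.98, SE 0.09), and Pgd was lower (-1.445, SE 0.07). Of the 6 ferroptosis and quinone genes 3 were higher, led by Aifm2 (4.90, SE 0.41) and Ephx1 (2.79, SE 0.15), and 2 were lower, Acsl4 (-2.06, SE 0.09) and Gch1 (-1.035, SE 0.23). CD11b-positive levels were low for Sod3 (0.448 ± 0.583 CPM, SD), Me1 (0.441 ± 0.355 CPM) and Aifm2 (0.753 ± 0.488 CPM), so their folds rest on few counts.

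Of the 11 NRF2 pathway genes 0 were called higher in ACSA2-positive libraries and 5 lower, and at an unadjusted p under 0.05, with no fold limit, 3 were higher and 6 lower. By that looser measure 13526 of all 33150 genes tested were higher and 9939 lower. The called NRF2 pathway genes were led by Bach1 (log2FC -3.06, SE 0.10), a repressor of Hmox1, and Mafk (-2.39, SE 0.13), a small Maf partner of NRF2 and BACH1. Haem and iron genes gave 2 higher, the haem transporter Slc48a1 (2.94, SE 0.09) and the transferrin receptor Tfrc (2.44, SE 0.15), and 4 lower of 10, led by the ferritin light chain Ftl1 (-2.83, SE 0.10) and the iron exporter Slc40a1 (-2.73, SE 0.12). All p.adj of the genes named here were at most 7.19e-05.

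Burn was then compared with sham within each population. No member was called in any of the 4 populations by edgeR, where 0% of the genes tested were called in ACSA2-positive, CaMKII positive, double-positive and CD11b-positive libraries alike, and DESeq2 also called 0 of the members. At an unadjusted p under 0.05 there was 1 of 10 members in ACSA2-positive libraries (10.7% of all genes), 1 in double-positive (7.01% of all genes), 1 in CD11b-positive (7.81% of all genes) and 0 in CaMKII positive libraries (3.9% of all genes), shares near those of all genes. Burn and sham ranges overlapped for all 10 members in all 4 populations, and the share of all genes with such overlap was not counted.

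In ACSA2-positive libraries Mt1 ran from 346 to 913 CPM in burn mice (median 562, n = 9) and from 460 to 771 CPM in sham mice (median 608, n = 8). The log2FC of burn minus sham was -0.12 (SE 0.14, p.adj = 0.870) for Mt1, -0.14 (SE 0.16, p.adj = 0.865) for Mt2 and -0.14 (SE 0.10, p.adj = 0.682) for Mt3. Without mouse 20, the burn library at 913 CPM, the value of Mt1 was -0.24, and without mouse 8 it was -0.05. The metallothioneins thus differed by less than the spread between mice. Slc7a11 had the smallest p of the members there: it ran from 595 to 1279 CPM in burn mice (median 939.8) and from 745 to 1360 CPM in sham mice (median 1106), with a log2FC of -0.28 (SE 0.11, p = 0.021, p.adj = 0.458). It did not pass, and 8 of 9 burn libraries lay within the sham range. Summed astrocyte markers ran from 33640 to 44100 CPM in the burn and from 32720 to 46420 CPM in the sham libraries. The other 6 members had log2FC between -0.18 and 0.07.

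In CaMKII positive libraries the 4 burn mice held 187, 437, 235 and 362 CPM of Mt1, against 248 to 370 CPM in 6 sham mice (median 291). Of the burn values 2 lay below the sham range, 1 lay above it and 1 within it, and the log2FC was 0.04 (SE 0.23, p.adj = 1.00). Mt2 held 52.2, 158, 92.0 and 123 CPM in the same burn mice, against 84.7 to 172 CPM, and gave -0.01 (SE 0.24). Mt3 held 203, 259, 191 and 276 CPM against 179 to 348 CPM and gave -0.07 (SE 0.19). The smallest p among members was that of Gclm, where the burn mice held 75.6, 101, 70.2 and 83.0 CPM and the sham mice 87.7 to 125 CPM (log2FC -0.28, SE 0.17, p = 0.116, p.adj = 1.00). The first of these burn libraries was the deepest of the series, with 134703744 counts.

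In double-positive libraries Mt3 had the largest log2FC among members with counts in every library. It ran from 5.24 to 12.3 CPM in burn mice (median 10.1, n = 9) and from 4.26 to 10.2 CPM in sham mice (median 5.23, n = 7), and the log2FC of 0.53 (SE 0.27, p.adj = 0.730) did not pass. Summed astrocyte markers had medians of 932 and 572 CPM in the burn and sham libraries, and ran from 637 to 1286 and from 453 to 1340 CPM, and their part in the Mt3 difference was not tested. Gpx4 had the smallest p, with 41.5 to 71.0 CPM in burn and 53.0 to 64.7 CPM in sham mice (log2FC -0.21, SE 0.08, p = 0.0144, p.adj = 0.708). Its burn libraries were more spread than the sham libraries and reached past them at both ends. The burn libraries of batch 1 had no sham library beside them in this population, and the log2FC was -0.25 (SE 0.10, p.adj = 0.683) within batch 3. Adding the libraries left out, among them that of mouse 8 with 331215 counts in all, turned the log2FC to 0.17 (SE 0.39). Nqo1 gave -2.24 (SE 1.33, p.adj = 0.804) from libraries of 0 to 43 counts.

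In CD11b-positive libraries Hmox1 had the smallest p, at 49.7 to 107 CPM in burn mice (median 74.1, n = 8) and 38.7 to 130 CPM in sham mice (median 98.5, n = 7). All burn values lay inside the sham range, and the log2FC was -0.40 (SE 0.18, p = 0.0415, p.adj = 0.639). Mt1 ran from 18.7 to 44.1 CPM in burn (median 32.3) and from 13.2 to 43.1 CPM in sham mice (median 25.8), with a log2FC of 0.36 (SE 0.19, p.adj = 0.657), which ran from 0.22 without mouse 15 to 0.54 without mouse 19. The log2FC of the members other than Nqo1, which was at or near 0 counts, lay between -0.40 and 0.36, and the smallest p.adj was 0.639.

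**Figure D3:**
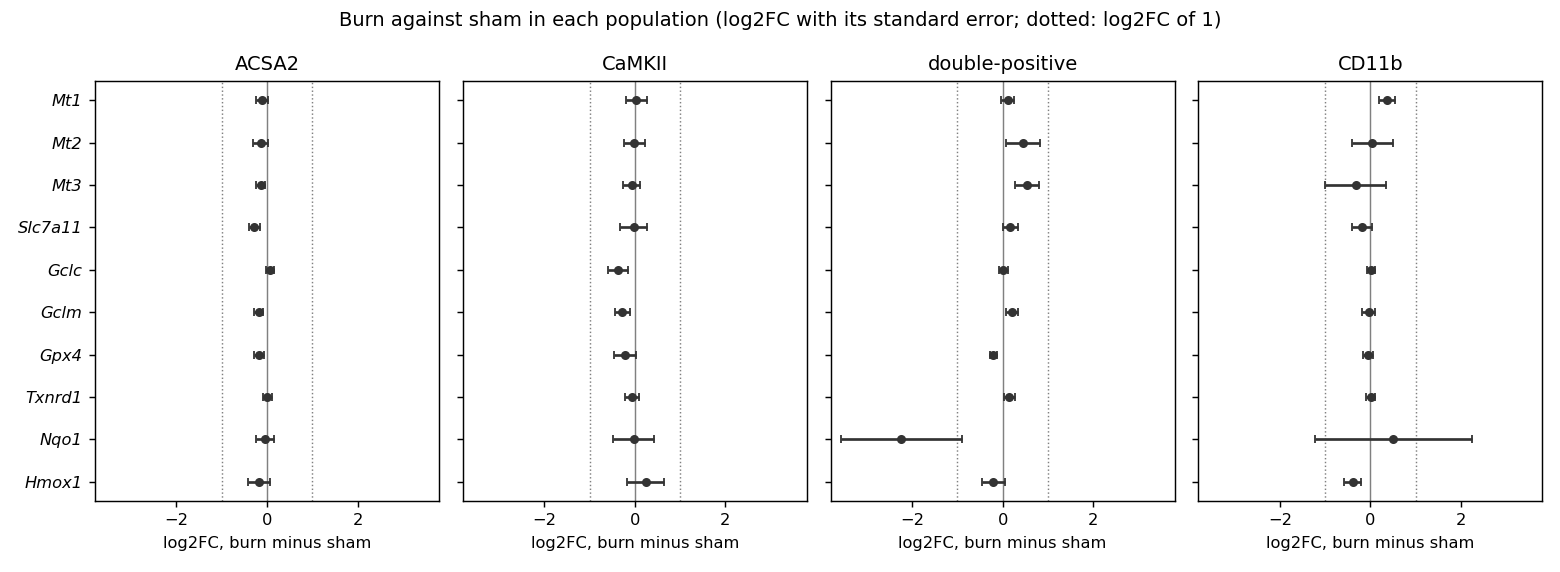
log2FC of burn minus sham with its standard error for the 10 genes in each of the 4 populations; dotted lines mark an absolute log2FC of 1. Members other than Nqo1 lie between -0.40 and 0.53, and the wide bars of Nqo1 in double-positive and CD11b-positive libraries rest on libraries at 0 counts.

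Of the 79 other antioxidant genes tested, 0 were called by edgeR between burn and sham in any population, where 0 of all genes were called. At an unadjusted p under 0.05 there were 1 higher and 7 lower in ACSA2-positive, 2 higher and 3 lower in CD11b-positive, 2 higher and 0 lower in double-positive and 0 in CaMKII positive libraries. Over all genes the shares were 10.7% in ACSA2-positive (2019 higher and 965 lower), 7.81% in CD11b-positive (1103 higher and 933 lower), 7.01% in double-positive (929 higher and 943 lower) and 3.9% in CaMKII positive libraries (840 higher and 256 lower). The median log2FC over the 79 was -0.06, -0.03, -0.01 and 0.02 in these populations, against 0.05 over all genes in ACSA2-positive libraries and at most 0.02 in size in the others. The gene with the smallest p was the iron exporter Slc40a1 in ACSA2-positive libraries (44.4 ± 11.7 CPM in burn and 28.95 ± 11.5 CPM in sham mice, log2FC 0.50, SE 0.16, p.adj = 0.458). Endothelial markers summed to 385 to 1172 CPM in these burn libraries and 122 to 681 CPM in the sham libraries, and their part in this value was not tested.
In CD11b-positive libraries it was the transferrin receptor Tfrc (34.8 ± 4.99 and 43.4 ± 15.7 CPM, log2FC -0.46, SE 0.13, p.adj = 0.639). In double-positive libraries it was Aifm2, a coenzyme Q reductase that limits lipid peroxidation, at 1.67 ± 1.05 and 0.422 ± 0.553 CPM (log2FC 2.84, SE 0.98, p.adj = 0.708), with 4 of 16 libraries at 0 counts. In CaMKII positive libraries it was thioredoxin, Txn1 (20.1 ± 6.38 and 31.3 ± 11.0 CPM, log2FC -0.64, SE 0.32, p.adj = 1.00). None of these passed the test.

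The difference between populations in the effect of burn was tested by an interaction term. For CD11b-positive minus ACSA2-positive libraries 0 of 10 members were called (0.00323% of all genes), and the smallest p among members was for Mt1, with a difference in log2FC of 0.49 (SE 0.27, p.adj = 0.680). For double-positive minus CaMKII positive libraries 0 of 10 were called (0.00977% of all genes), with the smallest p for Gclm at 0.44 (SE 0.20, p.adj = 0.7996), which ran from 0.23 without mouse 22 to 0.61 without mouse 20. No difference in the effect of burn between populations passed the test for any member.

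Levels also moved with the sequencing batch. Batch 3 held 8 of 10 CaMKII positive libraries and 10 libraries of each other population. In the same fits it was set against the mean of the terms of batches 1 and 2, where present, whatever their numbers of libraries. No member was called, and by p.adj alone, without the fold limit, there were 2 of 10 members in ACSA2-positive (2.32% of all genes), 3 in double-positive (5.95% of all genes), 0 in CD11b-positive (1.76% of all genes) and 0 in CaMKII positive libraries (0% of all genes). The numbers of genes behind these shares depended on single mice: with 1 left out they ran from 149 (without mouse 13) to 1035 (without mouse 11) around 648 in ACSA2-positive, from 201 (without mouse 18) to 1237 (without mouse 19) around 458 in CD11b-positive, from 620 (without mouse 11) to 2102 (without mouse 2) around 1589 in double-positive and from 0 to 61 (without mouse 2) in CaMKII positive libraries. DESeq2 gave 1239 genes in ACSA2-positive, 1283 in CD11b-positive and 127 in CaMKII positive libraries. Mt3 in ACSA2-positive libraries ran from 471 to 677 CPM in batch 3 (n = 10) and from 310 to 446 CPM in batches 1 and 2 (n = 7), without overlap, with a log2FC of 0.53 (SE 0.10, p.adj = 0.00823). Slc7a11 ran the other way in the same libraries, from 595 to 1126 CPM in batch 3 and from 939.8 to 1360 CPM in the others (log2FC -0.54, SE 0.11, p.adj = 0.0118). Summed astrocyte markers in these libraries had medians of 36980 CPM in batch 3 and 43760 CPM in batches 1 and 2, and their part in either value was not tested.

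In double-positive libraries Slc7a11 was lower in batch 3 as well, at 8.90 to 24.3 CPM against 21.2 to 32.8 CPM (log2FC -0.63, SE 0.15, p.adj = 0.0199). Gpx4 was lower there, at 41.5 to 61.9 against 61.0 to 71.0 CPM (log2FC -0.36, SE 0.07, p.adj = 0.00635), and so was Gclm, at 12.1 to 25.2 against 18.4 to 26.5 CPM (log2FC -0.43, SE 0.12, p.adj = 0.0401). The calls of Gclm and Slc7a11 depended on single libraries: that of Gclm was lost in 11 of 16 fits that left out 1 mouse (p.adj up to 0.114), and that of Slc7a11 without mouse 7 (p.adj = 0.0657) or mouse 12 (p.adj = 0.0780). Astrocyte markers had medians of 679 and 1087 CPM and microglia markers of 19210 and 25000 CPM in batch 3 and in the others. Mt2 in CD11b-positive libraries did not overlap between batches, at 1.21 to 3.45 CPM in batch 3 (n = 10) and 0.266 to 1.19 CPM in the 5 others, yet missed the threshold (log2FC 2.11, SE 0.64, p.adj = 0.0942). Over the libraries left out 1 at a time its p.adj ran from 0.0792 to 0.17. The contrast gave batches 1 and 2 equal weight, and batch 2 was 1 library here, at 0.274 CPM of Mt2. With DESeq2 the log2FC of Mt2 was 2.16 and passed the threshold. What differed between batches beyond sequencing is not given in the sources used here.

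**Figure D4:**
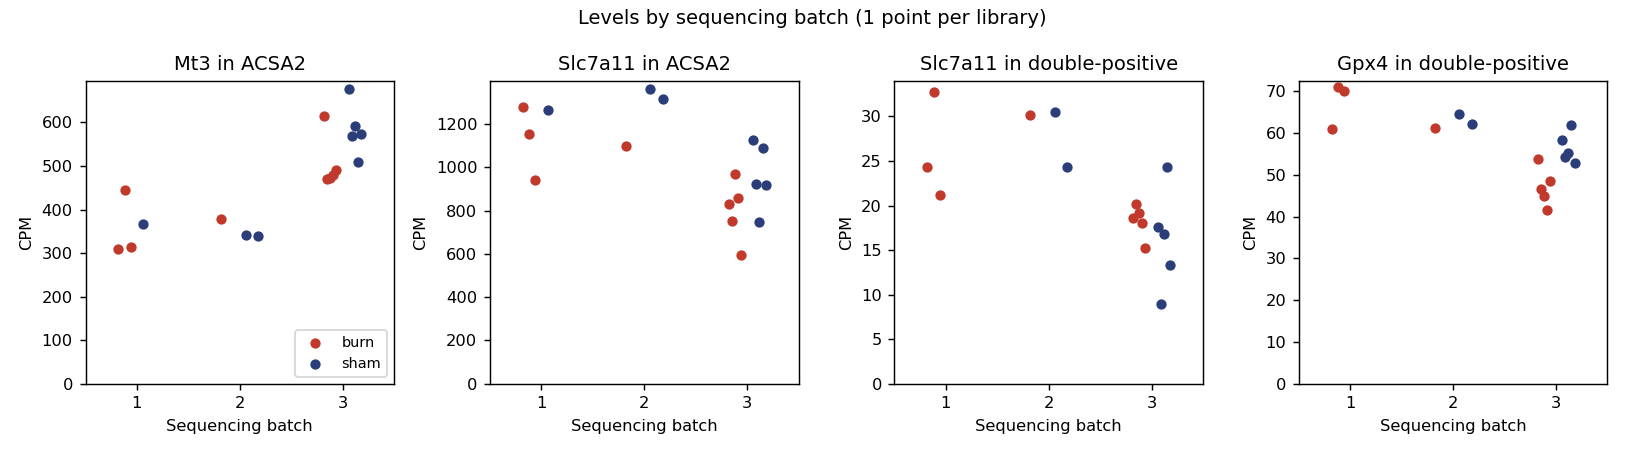
CPM by sequencing batch for Mt3 and Slc7a11 in ACSA2-positive libraries and for Slc7a11 and Gpx4 in double-positive libraries, 1 point per library, burn in red and sham in blue. Mt3 is higher in batch 3 (471 to 677 CPM) than in batches 1 and 2 (310 to 446 CPM), and the other 3 panels are lower in batch 3.

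Whether the metallothioneins moved together between mice was examined within each population, on log2(CPM + 0.5), with 12 relations in all. Mt1 and Mt2 were correlated in the 17 ACSA2-positive libraries (Pearson r = 0.945, permutation p = 1e-05, the smallest that 100000 resamples can give, adjusted p = 0.00012, Spearman rho = 0.848, permutation p = 5e-05, adjusted p = 0.0006). Within the 10 libraries of batch 3 r was 0.889 (permutation p = 0.00074, adjusted p = 0.00504) and rho was 0.721 (permutation p = 0.0231, adjusted p = 0.0553), which did not pass, and r was 0.931 without the 2 libraries farthest from the median of Mt1. In the 10 CaMKII positive libraries r was 0.874 (permutation p = 0.001, adjusted p = 0.003, rho = 0.794, permutation p = 0.00954, adjusted p = 0.0229), with 0.8125 in batch 3 (permutation p = 0.0127, adjusted p = 0.0509) and 0.678 without the 2 farthest libraries (permutation p = 0.0411, adjusted p = 0.0709). Spearman's rho was 0.881 in batch 3 (permutation p = 0.00724, adjusted p = 0.029), which passed, and 0.619 without the 2 farthest libraries (permutation p = 0.115, adjusted p = 0.197), which did not.

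The same relation was examined in the populations where Mt1 and Mt2 were low, and differences in r between populations were not tested. In 16 double-positive libraries r was 0.692 (permutation p = 0.00261, adjusted p = 0.00626, rho = 0.571, permutation p = 0.0233, adjusted p = 0.04). It was 0.879 within batch 3 (permutation p = 0.00084, adjusted p = 0.00504) and 0.339 without the 2 farthest libraries (permutation p = 0.235, adjusted p = 0.287), so that it rested on those libraries. In 15 CD11b-positive libraries r was 0.558 (permutation p = 0.0312, adjusted p = 0.0623, rho = 0.754, permutation p = 0.00185, adjusted p = 0.00555), 0.570 within batch 3 (permutation p = 0.0909, adjusted p = 0.158, rho = 0.733, permutation p = 0.0211, adjusted p = 0.0553, so that the call by rho was lost there) and 0.788 without the 2 farthest (permutation p = 0.00144, adjusted p = 0.00688).

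**Figure D5:**
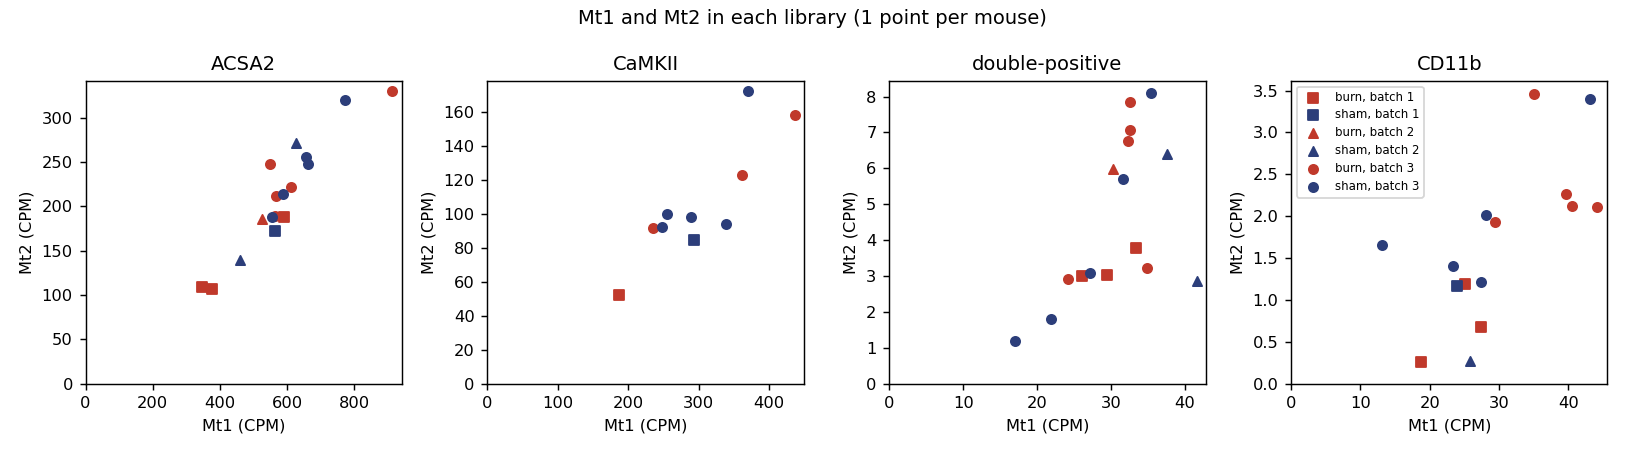
Mt2 against Mt1 in CPM, 1 point per mouse in each of the 4 populations, with burn in red, sham in blue and a marker for each sequencing batch. The ACSA2-positive points lie along a line (r = 0.945 on the log2 scale), and the double-positive points spread from 17.0 to 41.6 CPM of Mt1 and from 1.20 to 8.09 CPM of Mt2.

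Mt3 was also correlated with the other metallothioneins in ACSA2-positive libraries. Its r was 0.775 with Mt1 (permutation p = 8e-05, adjusted p = 0.00048, rho = 0.767, permutation p = 0.00047, adjusted p = 0.00282) and 0.746 with Mt2 (permutation p = 0.00049, adjusted p = 0.00196, rho = 0.728, permutation p = 0.0013, adjusted p = 0.0052). Within batch 3 these were 0.643 (permutation p = 0.0391, adjusted p = 0.117) and 0.519 (permutation p = 0.126, adjusted p = 0.189) by Pearson's r, neither past the threshold after adjustment, and by Spearman's rho 0.806 with Mt1 (permutation p = 0.00724, adjusted p = 0.029), which passed, and 0.491 with Mt2 (permutation p = 0.155, adjusted p = 0.207). Mt3, which passed the batch test, and Gclc, which did not, were the members without overlap between batches in these libraries. The share of all genes without such overlap was not counted. Without the 2 farthest libraries r was 0.713 with Mt1 (permutation p = 0.00172, adjusted p = 0.00688) and 0.587 with Mt2 (permutation p = 0.0219, adjusted p = 0.0657). In CD11b-positive libraries Mt3 gave r = 0.0739 with Mt1 (permutation p = 0.793, adjusted p = 0.793, rho = -0.107, permutation p = 0.707, adjusted p = 0.707) at a mean of 1.33 CPM. The other 5 relations of Mt3 had r from 0.229 to 0.651 and none passed by Pearson's r after adjustment, while by Spearman's rho both in CaMKII positive libraries did (rho = 0.697 with Mt1, permutation p = 0.0316, adjusted p = 0.0475, and 0.758 with Mt2, permutation p = 0.0148, adjusted p = 0.0295). Both were lost in batch 3 alone (adjusted p = 0.0559 and 0.198) and without the 2 farthest libraries (adjusted p = 0.139 and 0.138).

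As a description, the genes most like each member were ranked by Pearson's r of log2(CPM + 0.5) over the 58 libraries, among 12195 genes, where the 4 populations set most of the value. Slc7a11 was closest to Mfge8 (r = 0.995), Mfap3l and Abhd3 (0.993 each), Mt3 to Tmem47 (0.991), Igsf11 and Prnp (0.9905 each), Mt2 to Pla2g7, Gstm1 (0.986 each) and Acsl3 (0.984), and Mt1 to Agpat5 (0.9845), S1pr1 (0.984) and Sc5d (0.983). Gclm was closest to Ak3, Lrrc58 and Dag1 (0.984 each) and Nqo1 to Slc2a12 (0.978), Neo1 (0.975) and Alcam (0.974). Hmox1 was closest to Rasgef1b (0.966), Nfe2l2 (0.9605), the gene for NRF2 itself, and Ppp1r15a (0.960). Gclc, Gpx4 and Txnrd1 had looser partners, with Myo7a (0.920), Pebp1 (0.918) and BC005537 (0.8595) the closest.
Over the 17 ACSA2-positive libraries after batch and treatment means were taken out, among 10029 genes, the closest gene to Mt1 was Mt2 and the closest to Mt2 was Mt1 (r = 0.915), followed for Mt1 by Agpat1 (0.898) and Gstm1 (0.888) and for Mt2 by Smo (0.843) and Gadd45g (0.831). Mt3 was closest to Rab9 (0.922), Brk1 (0.8835) and Cox7b (0.882), and neither Mt1 nor Mt2 was among its first 3.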

How the data were processed

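Cells were sorted live from mouse cortex, and total RNA libraries (stranded, ribosomal RNA depleted) were sequenced in 3 batches, which are given in the study's supplementary sample table. The authors trimmed reads with fastp, aligned them with STAR and counted them per gene with GenomicAlignments, and deposited whole-number counts for 56980 Ensembl genes; GRCm39 and mm10 are both named in the submitters' processing notes, and the strand setting is not given in the sources used here. The authors also deposited normalized log2-scale values, which were not used. The libraries of mouse 3 and the double-positive library of mouse 8, which the study left out, were left out here too.

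Counts were tested with edgeR 4.0.16 (quasi-likelihood, TMM, R 4.3.3) after genes with fewer than 10 counts over the libraries of a fit were dropped, and p-values were adjusted by Benjamini-Hochberg. Burn against sham and batch 3 against the others were fitted within each population, with treatment and batch as terms. Population contrasts were fitted over all populations together, with treatment and batch as terms. Each interaction was fitted over only the pair of populations compared, with batch terms within each population. Calls needed an adjusted p no greater than 0.05 and a log2FC of 1 or more in size. The SE was the log2FC divided by the square root of F. CPM used the total count of each library, CPM per kb the exon union of GENCODE M21 (GRCm38), which also gave overlaps. Floors of 3 counts cover counting error only. The fits were also run on simulated data with known changes, and the outcome is not given here. The simulated data had the same spread for every gene, no batch effect and few genes changed between populations. They therefore do not cover the population contrasts of the real data. No pair of the 63 libraries was a duplicate within sampling noise. The same number in the labels was taken to be the same mouse. Over these numbers, the median correlation of residual deviations between populations ran from 0.0261 to 0.2272. Unlike numbers were not compared, so these values cannot decide whether the mice are the same.

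The 10 genes, the 8 pathway lists and the marker lists were chosen with earlier results of these data known. The genes named beyond the 10 were, per pathway list, the pair called with the largest positive and the pair with the largest negative log2FC in ACSA2 against CD11b, the gene with the smallest p per population in burn against sham, and the 3 most alike by Pearson's r. Motifs, permutation tests and figures used Python 3.11.15, pandas 2.3.3, numpy 2.4.6, scipy 1.17.1 and matplotlib 3.10.9. Alternatives were DESeq2 1.42.0, other scalings and filters, no batch term, batch 3 alone, all deposited libraries, no minimum fold, a mouse block, another pseudocount (0.1) and each mouse left out.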

Additional observations from a re-analysis of the deposited data

Results flagged for a closer look

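Within the groups of 4 to 9 mice, 80 sets of member levels were examined for a single library far from the rest, and 7 had a highest library whose gap to the next exceeded Dixon's 95% critical value. Chance gives such a gap in about 1 in 20 groups. Mt1 was 913 CPM in the ACSA2-positive library of burn mouse 20, where the other burn libraries held 346 to 612.5 CPM. Mt2 was 172 CPM in the CaMKII positive library of sham mouse 19, against 84.7 to 99.8 CPM in the others. Nqo1 stood apart in 3 groups, at 16.3 CPM in CaMKII positive sham mouse 8 (others 3.31 to 7.05 CPM), 1.35 CPM in double-positive burn mouse 10 (others 0 to 0.384 CPM) and 0.590 CPM in CD11b-positive sham mouse 16 (others 0 to 0.0559 CPM), the last from 13 counts. Gpx4 was 83.0 CPM in CD11b-positive burn mouse 2, against 49.0 to 61.9 CPM. Txnrd1 was 88.4 CPM in double-positive sham mouse 16, against 67.9 to 76.5 CPM. None of the 20 member interactions between treatment and population passed the adjusted threshold.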

How the results depend on the processing

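With burn against sham, 0 genes were called by edgeR and no member was called under any alternative; the genes called were 27 (ACSA2), 80 (CD11b), 3 (CaMKII) and 2 (double-positive) by DESeq2, 4 (ACSA2) and 14 (double-positive) with no filter on low counts, and 136 in double-positive libraries with all deposited libraries. Of 318 member values 316 kept their direction and side of the threshold; Gclm in ACSA2-positive libraries turned to 0.0252 in batch 3 alone and Gpx4 in double-positive libraries to 0.17 with all deposited libraries. A value that was not called and was smaller than its SE was given no direction. For the interactions, the genes called (1 for CD11b minus ACSA2, 3 for double-positive minus CaMKII) were 3 and 0 in batch 3 alone, 0 and 0 with the replicate block for the mouse, and 0 to 9 and 2 to 9 with 1 mouse left out. The block changed no call of a member. Between populations 473 of 480 member values were the same. Scaling to library size only left 2 of 4 members called in CaMKII minus ACSA2, and turned Gclc to 0.0419 and Gpx4 to 0.0172; with no minimum log2FC 10861 genes were called there. Between double-positive and CD11b-positive libraries, 1056 genes were called in batch 3 alone and 1529 with the block. That scaling moved the median of all genes by over 0.1 (log2) only in contrasts with CaMKII positive libraries, to 0.15 against ACSA2, 0.31 against CD11b and 0.25 against double-positive libraries. Leaving out 1 mouse moved the batch difference of Gpx4 (-0.67 to 0.12) and Nqo1 (-1.66 to 0.00987) in CaMKII positive and of Hmox1 (-0.39 to 0.48) in CD11b-positive libraries across 0. Batch calls were gained by Mt2 and Gclc in ACSA2-positive and Mt2 in CD11b-positive libraries by DESeq2, by Gclc in ACSA2-positive libraries with library size only (p.adj = 0.0404), by Gclm there without mouse 20 (p.adj = 0.0392) and by Txnrd1 in double-positive libraries without mouse 2 (p.adj = 0.0201). The r of Mt1 and Mt2 was 0.8125 in batch 3 and 0.678 without the 2 farthest libraries in CaMKII positive libraries, and 0.339 and 0.788 without the 2 farthest in double-positive and CD11b-positive libraries. The cause of these changes was not tested.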
